A study of Saccharomyces cerevisiae x Saccharomyces paradoxus and Saccharomyces cerevisiae and Saccharomyces paradoxus with 10 samples.

Results

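The hybrid's total ribosome occupancy was compared, gene by gene, with the average of its parents in a cross between 2 related yeasts, Saccharomyces cerevisiae and S. paradoxus. Ribosome occupancy is the amount of ribosome-protected fragments (RPF), the short stretches of mRNA that a translating ribosome shields from nuclease. The comparison used the 5 RPF samples of the 10 samples in the series and tested 4432 of 4637 genes. For each hybrid replicate the total was the mean of the S. cerevisiae and the S. paradoxus value of a gene, each in ppm of all coverage of its species, and the mid-parent was the same mean over the parental values.

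The hybrid was a diploid made from BY4176, an S. cerevisiae strain of mating type MAT-alpha with lys2 and ura::KAN, and from CBS432, an S. paradoxus strain of mating type MATa with ura::HYG. It had 2 RPF replicates. The parental samples held RPF of S. cerevisiae BY4176 and S. paradoxus CBS432 mixed in 1 library per replicate, also with 2 replicates, of which replicate 2 was sequenced in 2 lanes. The mixture was labelled haploid/diploid, and the labels of the separate parental mRNA samples gave S. cerevisiae as the haploid and S. paradoxus as the diploid, while the mixed mRNA sample was described as taken from haploid strains. Whether the S. paradoxus cells in the RPF mixtures were haploid or diploid is therefore not settled by the labels. All cultures came from single colonies in rich YPD medium at 30 °C, in 750 ml, were kept for 16 h or more and were harvested in log phase at an OD600 of 0.5 to 0.7. The mRNA samples of the series were not used here. The hybrid therefore differed from the mid-parent in genome and in the labelled loss of URA3. From at least the S. cerevisiae parent it also differed in ploidy and in having both mating types in 1 cell. These differences came at once and cannot be told apart.

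In a hybrid, the regulators of both species act on both sets of alleles in a shared cytoplasm, and a gene whose level is simply additive lies midway between the parents. Yeast mating type is set by the MAT locus: alpha cells make alpha pheromone and the receptor for a pheromone, a cells do the reverse, and both kinds of haploid share a pheromone response pathway. In a diploid with both MAT alleles, the a1-alpha2 repressor turns off haploid genes and alpha genes are not activated. RPF levels follow the amount of mRNA and the number of ribosomes on it, so a change in RPF alone does not say which of them moved, and this was not tested.

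Depth was known only as coverage in bases, not as reads. Deposited coverage per species column was 90.3 and 60.6 Mb in hybrid RPF replicates 1 and 2, and 106 and 107 Mb in parental replicates 1 and 2. The authors multiplied the S. paradoxus values by 1 factor per replicate, which was 1.01 in both hybrid RPF replicates, 2.13 in parental replicate 1 and 0.417 in parental replicate 2, so that the S. paradoxus coverage before scaling was 49.8 Mb in parental replicate 1 and 256 Mb in parental replicate 2. The design text calls the hybrid libraries biological replicates, and the labels of the mixed parental libraries say only that all samples came from single colonies, so p-values measure only how far these libraries lay from each other, and that spread may be technical. Hybrid replicates differed from each other by a median of 0.22 on the log2 scale and parental replicates by 0.11. Fewer cells with a transcript and less RNA per cell cannot be told apart in bulk cultures.

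Ribosome occupancy in the hybrid stayed close to the mid-parent for most genes, with a long tail of genes that fell. Of the 4432 genes tested, 1036 (23.4%) differed from the mid-parent at an adjusted p under 0.05, of which 435 (9.81%) were higher and 601 (13.6%) lower in the hybrid. The median log2 difference over all genes was -0.02, with a 5th percentile of -0.96 and a 95th percentile of 0.61. Among the called genes, 20 were over 2-fold higher and 182 over 2-fold lower, while 449 differed by less than 1.5-fold. The mid-parent is an arithmetic mean, so a hybrid at the level of the higher parent is at most 2-fold above it. A hybrid at the level of the lower parent has no such bound, so the counts over 2-fold higher and lower are not alike. With the mean of log2 values instead, 444 genes were called higher and 489 lower. The median standard error of a difference was 0.16 on the log2 scale with n = 2 replicates per group. Without parental replicate 1 the number called was 268, and without parental replicate 2 it was 407. With 2 replicates against 2, an exact permutation test of a gene cannot give a two-sided p under 0.333, so calls rest on the spread that limma shares across genes. A fit without 1 replicate left 1 library in that group, so its spread came from the other group alone. Calls gained or lost in such fits, here and below, therefore rest on 1 library of that group.

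**Figure D1:**
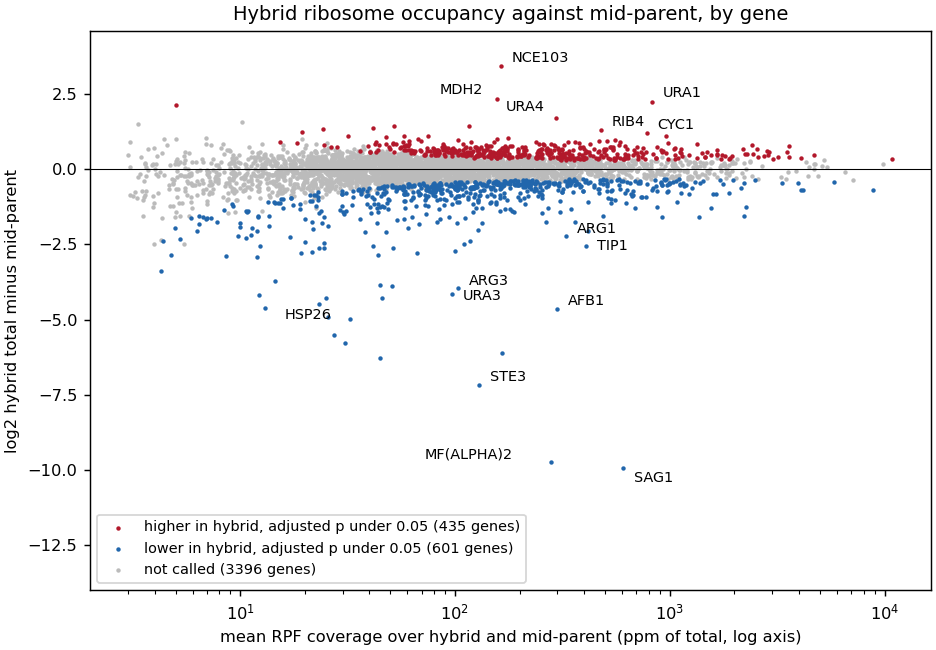
Log2 difference of the hybrid total from the mid-parent (vertical axis) against the mean RPF coverage in ppm (horizontal log axis), 1 point per gene; red points were called higher and blue points called lower in the hybrid. The 20 genes called over 2-fold higher sit above a broad band around 0, and the 182 called over 2-fold lower reach -9.94 for SAG1. The mid-parent is an arithmetic mean, which leaves more room below it than above.

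Pyrimidine synthesis held both the deleted marker gene and 3 of the genes that rose. URA3 encodes orotidine-phosphate decarboxylase, the last step to UMP, and is replaced in both strains of the cross according to the labels. URA3 had 7.82 and 12.1 ppm of RPF in the hybrid replicates, against 178 and 188 ppm in the mid-parent. It was low in both hybrid replicates but not at 0, while the hybrid's label gives a replaced gene. The S. cerevisiae column of the hybrid held 8.04 and 11.6 ppm of URA3 and the S. paradoxus column 7.60 and 12.5 ppm. Where this remaining coverage came from was not tested. The parental libraries bear the same strain names with no marker named, and their URA3 level of 192 and 204 ppm in the S. cerevisiae column and 164 and 173 ppm in the S. paradoxus column goes against a replaced URA3 in those cells. Its log2 difference was -4.16 ± 0.22 (SE, n = 2 each; adjusted p = 6.12e-07).

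URA1, the dihydroorotate dehydrogenase that works upstream of URA3, had 1349 and 1377 ppm in the hybrid and 283 and 292 ppm in the mid-parent. Both hybrid replicates were 4.74-fold above the mid-parent on average and the groups did not overlap (log2 difference 2.25 ± 0.10; adjusted p = 1.21e-07). URA4, the dihydroorotase that acts just before URA1, had 401 and 509 ppm in the hybrid and 144 and 133 ppm in the mid-parent (log2 difference 1.70 ± 0.13; adjusted p = 1.13e-05). FUR1, the uracil phosphoribosyltransferase of the salvage route, was also higher (0.66 ± 0.13; adjusted p = 0.00489). URA5, the orotate phosphoribosyltransferase, had 478 and 507 ppm in the hybrid and 413 and 412 ppm in the mid-parent and was not called (adjusted p = 0.0953). Of the 5 tested members of this list, 3 were thus higher and 1 was lower, against 9.81% higher and 13.6% lower over all genes.

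In S. cerevisiae the zinc-cluster activator Ppr1 switches on URA1, URA3 and URA4 and recognises the triplets CGG and CCG separated by 6 bases. The stretches of the S. cerevisiae promoters that hold this spacing are shown because these genes make up the pyrimidine result; the match is in capitals, coordinates are those of the R64 reference genome, and each is read on the plus strand, which is the coding strand of all 3 genes. URA1 (chrXI:24963-25054) holds 2 matches, and URA4 (chrXII:963615-963706) and URA3 (chrV:115975-116066) hold 1 each.
URA1: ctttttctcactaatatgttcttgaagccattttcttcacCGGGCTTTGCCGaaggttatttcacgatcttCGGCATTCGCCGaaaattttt
URA4: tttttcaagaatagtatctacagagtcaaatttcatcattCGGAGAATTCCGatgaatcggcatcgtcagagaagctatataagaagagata
URA3: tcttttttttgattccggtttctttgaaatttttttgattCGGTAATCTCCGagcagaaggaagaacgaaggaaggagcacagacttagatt
The spacing was searched on both strands of the 300 bases before each coding start, and it was added after the values had been seen. It occurred in 2 of the 3 called-higher members, in 1 of the other 2 members and in 1.2% of 4212 tested genes. URA5 had no match in this window. Overlap with other motifs was not examined here or in the searches below, only S. cerevisiae sequence was read, and binding was not measured.

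Haploid and mating genes showed the deepest falls. Of 20 tested members, 16 were lower in the hybrid and 0 higher, with a median log2 difference of -4.24, against 13.6% lower and a median of -0.02 over all genes. Their summed RPF was 106 and 131 ppm in the hybrid and 3272 and 2931 ppm in the mid-parent. The S. cerevisiae parent carried nearly all of the mid-parent level: 18 of the 20 were higher in S. cerevisiae than in S. paradoxus, by a median of 5.24 on the log2 scale. These genes are known to depend on mating type and ploidy, and the list was chosen for that.

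SAG1, the alpha-agglutinin of the alpha cell surface, had 0.697 and 0.760 ppm in the hybrid and 1288 and 1135 ppm in the mid-parent. MF(ALPHA)2, an alpha-pheromone precursor, had 0.362 and 0 ppm in the hybrid and 558 and 567 ppm in the mid-parent. STE3, the receptor for a-factor, had 2.09 and 0.674 ppm in the hybrid and 302 and 211 ppm in the mid-parent. All 3 alpha-cell genes lay near 0 in both hybrid replicates, so their fitted log2 differences of -9.94, -9.75 and -7.18 depend on the 0.5 ppm added before taking logs and are not bounds. AFB1, a gene of alpha cells whose product binds a-factor, had 22.0 and 23.5 ppm in the hybrid and 615 and 540 ppm in the mid-parent (log2 difference -4.63 ± 0.14; adjusted p = 4.05e-09).

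The shared pheromone pathway of both haploid types fell as well. The G protein subunits GPA1, STE4 and STE18 had log2 differences of -4.28, -3.84 and -4.50. GPA1 stood at 3.25 and 4.94 ppm in the hybrid and at 91.9 and 83.1 ppm in the mid-parent. The mating MAP kinase FUS3 (-5.79), the G1 arrest factor FAR1 (-6.28), the meiosis repressor RME1 (-5.53) and the end-joining factor NEJ1 (-2.90) were also called lower, from hybrid levels of at most 1.92 ppm for each of these 4 genes, so that these values too depend on the 0.5 ppm added. The call of NEJ1 was lost without parental replicate 1 (adjusted p = 0.105). STE12, the transcription factor of the pathway, had the smallest called fall (-0.95).

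Markers of a cells were near the bottom of the scale in all samples. STE2, the receptor for alpha-factor, had 1.07 and 3.98 ppm in the hybrid and 4.05 and 3.82 ppm in the mid-parent. BAR1, the protease that degrades alpha-factor, had 2.45 and 9.06 ppm in the hybrid and 4.19 and 4.18 ppm in the mid-parent. STE6, the exporter of a-factor, had 2.04 and 7.30 ppm in the hybrid and 3.28 and 3.62 ppm in the mid-parent. None of the 3 passed the test, and their groups overlapped. Without hybrid replicate 1, which left 1 hybrid library, the log2 difference of BAR1 was 1.03. In the S. paradoxus column of the parental libraries, GPA1 was at 10.5 and 9.52 ppm, STE4 at 0.301 and 0.445 ppm and SAG1 at 6.22 and 4.03 ppm, all far under the S. cerevisiae column, which held 173 and 157 ppm of GPA1. FUS3 stood at 1.47 and 1.63 ppm in S. paradoxus and RME1 at 0.643 and 0.543 ppm. The fall of the shared haploid genes was thus mainly a contrast with the S. cerevisiae parent. The ploidy of the S. paradoxus cells was not tested.

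The pheromone response element TGAAACA, to which Ste12 binds, was found in the 300 bases before 7 of the 16 called-lower members, before 4 of the other 4 and before 7.2% of all tested genes. The surroundings of this element are shown for FUS3 (chrII:192151-192235) and AGA1 (chrXIV:703457-703543), 2 members of the pathway that fell; both are on the plus strand of R64, capitals mark the element. FUS3 holds 2 matches in the 300 bases, of which 1 is shown, as its complement.
FUS3: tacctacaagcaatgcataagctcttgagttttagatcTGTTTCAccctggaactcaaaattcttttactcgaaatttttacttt
AGA1: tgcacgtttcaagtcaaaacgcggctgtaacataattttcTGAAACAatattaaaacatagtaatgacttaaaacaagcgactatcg
AGA1, which anchors the agglutinin of a cells to the wall, had 3.06 and 5.84 ppm in the hybrid and 324 and 327 ppm in the mid-parent.

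Outside the pyrimidine genes, the highest rises of well-covered genes came from different pathways. NCE103, the carbonic anhydrase, had 411 and 193 ppm in the hybrid and 24.6 and 26.4 ppm in the mid-parent, a log2 difference of 3.44 ± 0.27 (10.9-fold; adjusted p = 1.22e-05). The hybrid replicates lay apart from each other, and neither came near the mid-parent. MDH2, the cytosolic malate dehydrogenase of gluconeogenesis, had 217 and 308 ppm in the hybrid and 50.7 and 51.2 ppm in the mid-parent (2.33 ± 0.17; adjusted p = 6.49e-06).

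RIB4, lumazine synthase of riboflavin synthesis, had 620 and 739 ppm in the hybrid and 271 and 274 ppm in the mid-parent (1.31 ± 0.11). CTR1, the high-affinity copper transporter, had 1326 and 1304 ppm in the hybrid and 677 and 542 ppm in the mid-parent (1.12 ± 0.12). All 4 values of each gene separated by group. PAM18, a subunit of the mitochondrial import motor, had 169 and 106 ppm in the hybrid and 61.4 and 75.2 ppm in the mid-parent (0.97 ± 0.21), a call that was lost without parental replicate 1 (adjusted p = 0.0771). RRP17, a nuclease of ribosomal RNA processing, had 228 and 193 ppm in the hybrid and 101 and 105 ppm in the mid-parent (1.02 ± 0.13).

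**Figure D2:**
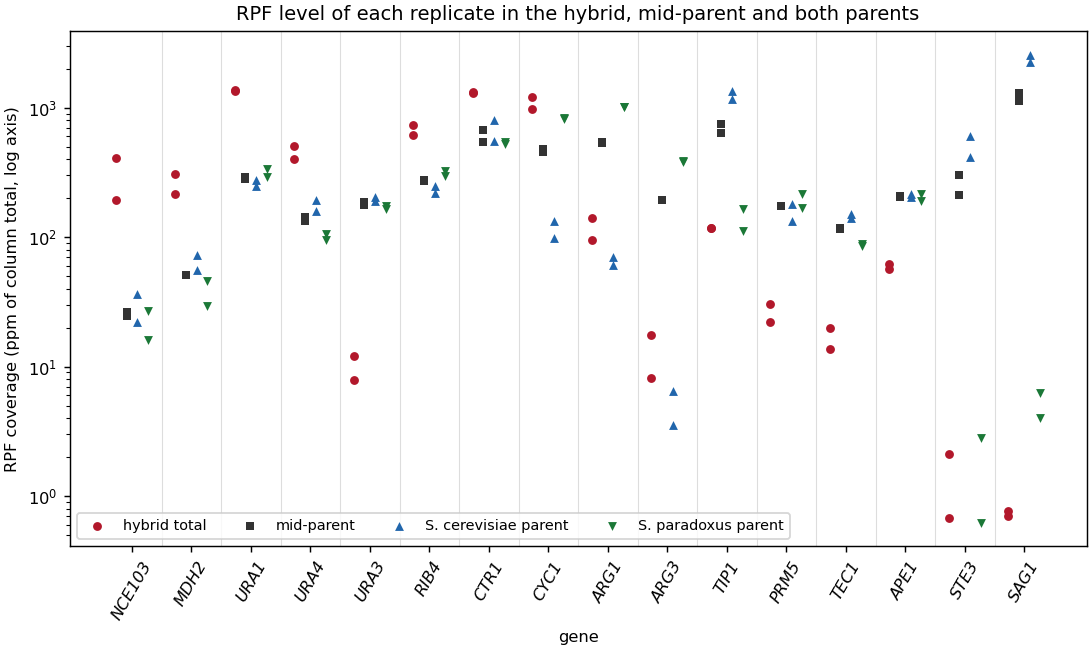
RPF coverage in ppm (log axis) of 16 genes in each replicate, with the hybrid total as red circles, the mid-parent as black squares, the S. cerevisiae parent as blue triangles and the S. paradoxus parent as green inverted triangles. NCE103, MDH2, URA1, URA4, RIB4 and CTR1 lie above both parents in the hybrid, URA3, PRM5, TEC1, APE1 and SAG1 below both, and ARG1 and ARG3 close to the lower, S. cerevisiae parent.

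Genes that build and run ribosomes were higher in the hybrid than in the mid-parent, as a broad, small shift. Of 102 ribosome biogenesis genes tested, 60 rose and 0 fell, with a median log2 difference of 0.40 and a range from -0.09 to 0.98, against 9.81% higher and a median of -0.02 over all genes. Of 23 cytosolic ribosomal protein genes, 14 rose and 0 fell (median 0.41), and of 60 mitochondrial ribosomal protein genes, 15 rose and 0 fell (median 0.34). Among 29 translation factors, 11 rose and 1 fell (median 0.26). Summed over the biogenesis list, RPF was 48340 and 48100 ppm in the hybrid and 35120 and 36530 ppm in the mid-parent. Without parental replicate 1, 14 biogenesis genes, 7 cytosolic and 4 mitochondrial ribosomal protein genes and 4 translation factors were called higher, and without parental replicate 2 the counts were 31, 12, 9 and 7. The medians of these lists without either parental replicate lay between 0.28 and 0.55. Without hybrid replicate 2, which left 1 hybrid library, the median of the mitochondrial list was 0.42. With coverage taken per unmasked base before scaling, 38 biogenesis genes and 8 cytosolic ribosomal protein genes were called higher and 0 lower. Most biogenesis genes were lower in S. cerevisiae than in S. paradoxus (only 3 of 102 were higher, median log2 difference -0.76). The mid-parent thus lay above the S. cerevisiae level for them. Against each parent by itself, 4 biogenesis genes and 3 translation factors were called above both parents. So were 3 cytosolic and 2 mitochondrial ribosomal protein genes, against 0.856% of all genes.

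MRT4, an assembly factor of the large ribosomal subunit, had 701 and 772 ppm in the hybrid and 387 and 357 ppm in the mid-parent (0.98 ± 0.11; adjusted p = 0.000107). NOP4, a nucleolar protein needed for large subunit rRNA processing, had 565 and 668 ppm in the hybrid and 310 and 335 ppm in the mid-parent (0.93 ± 0.11). Their hybrid replicates were all above both mid-parent values. RPL31B, a protein of the large subunit, had 1319 and 1224 ppm in the hybrid and 653 and 722 ppm in the mid-parent (0.89 ± 0.10). RPL8A, which has a near-identical copy in the genome so that its values are uncertain, showed 0.80 ± 0.15. Copies of RPL31B and of the other ribosomal protein genes were not examined, so the same doubt may apply to them.

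Among the translation factors, TIF35, the eIF3g subunit, had 820 and 525 ppm in the hybrid and 322 and 365 ppm in the mid-parent (0.94 ± 0.17). SUI2, the alpha subunit of eIF2, had 698 and 664 ppm in the hybrid and 376 and 448 ppm in the mid-parent (0.73 ± 0.11). CAM1, a gamma subunit of the elongation factor eEF1B, was the member that fell, with 583 and 685 ppm in the hybrid and 1025 and 1018 ppm in the mid-parent (-0.69 ± 0.11). The mitochondrial ribosomal proteins MRPL31 and MRP2 showed 0.86 ± 0.13 and 0.91 ± 0.16.

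The PAC core GATGAG, an element known from promoters of rRNA processing genes, stood in the 300 bases before 54 of the 60 ribosome biogenesis genes that rose, before 36 of the other 42 and before 19.7% of all tested genes. Members that passed and members that did not thus carried it at shares of 90.0% and 85.7%. Its surroundings are shown for MRT4 (chrXI:426086-426171) and NOP4 (chrXVI:469784-469869), the members of the list with the largest rises; both are read on the plus strand of R64, and capitals mark the core, which NOP4 holds as 2 overlapping complements.
MRT4: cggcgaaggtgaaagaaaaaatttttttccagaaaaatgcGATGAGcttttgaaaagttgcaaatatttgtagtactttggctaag
NOP4: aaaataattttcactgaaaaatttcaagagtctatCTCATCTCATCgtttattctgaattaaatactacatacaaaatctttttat

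In energy metabolism, respiratory genes had more called rises than falls, and glycolytic and reserve-carbohydrate genes had called falls and no rises. Of 27 respiratory chain and ATP synthase genes, 10 rose, 1 fell and 16 did not pass the test (median 0.32). Over all genes, 9.81% were higher and 13.6% lower. Only 2 of the 27 were higher in S. cerevisiae than in S. paradoxus (median log2 difference -1.02). In the comparison with each parent, 0 of them were called above both. CYC1, the main cytochrome c, had 1204 and 984 ppm in the hybrid and 480 and 458 ppm in the mid-parent (1.22 ± 0.12; adjusted p = 4.29e-05). COX4, a subunit of cytochrome c oxidase, had 292 and 186 ppm in the hybrid and 106 and 120 ppm in the mid-parent (1.05 ± 0.19). The member that fell was CYC7, the minor cytochrome c of low oxygen, at 7.94 and 4.15 ppm in the hybrid and 16.5 and 19.7 ppm in the mid-parent, and this call was lost without either parental replicate (adjusted p = 0.181 and 0.243). The list had 4 members called higher without parental replicate 1, 5 without parental replicate 2 and 15 without hybrid replicate 2.

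All 5 called members of 7 tested genes of glycolysis and fermentation fell (median -0.68), against 13.6% lower over all genes. TDH1, a glyceraldehyde-3-phosphate dehydrogenase of stationary cells, has close copies in the genome. It had 14.1 and 13.9 ppm in the hybrid and 83.0 and 95.7 ppm in the mid-parent (-2.63 ± 0.20). Its level was 141 and 172 ppm in S. cerevisiae and 25.4 and 19.7 ppm in S. paradoxus. The list had 3 called members without parental replicate 1, 2 without parental replicate 2 and 3 per unmasked base. Of 11 TCA and glyoxylate cycle genes, 3 fell and 1 rose; the number lower was 1 without parental replicate 1 and 5 without hybrid replicate 1. IDH2, a subunit of isocitrate dehydrogenase, had 427 and 509 ppm in the hybrid and 856 and 878 ppm in the mid-parent (-0.89 ± 0.11), while MDH2 rose as given above. The 3 hexose transport genes tested, RGT2, SNF3 and STD1, did not pass the test. Without hybrid replicate 1, which left 1 hybrid library, the log2 difference of RGT2 was -0.91.

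General stress and reserve-carbohydrate genes were lower in 11 of 19 cases and higher in 0 (median -0.83), against 13.6% lower and 9.81% higher over all genes. In the parents, 14 of the 19 were higher in S. cerevisiae than in S. paradoxus (median log2 difference 0.89). Only 3 were called below both parents. GPH1, glycogen phosphorylase, had 7.29 and 7.37 ppm in the hybrid and 40.7 and 43.2 ppm in the mid-parent (-2.44 ± 0.26; adjusted p = 0.000108). HSP26, a small heat-shock protein, had 0.623 and 2.82 ppm in the hybrid and 46.7 and 79.2 ppm in the mid-parent. The S. cerevisiae parent carried most of both mid-parent levels. GPH1 had means of 68.1 ppm in S. cerevisiae and 15.9 ppm in S. paradoxus, and HSP26 had 122 and 4.15 ppm. Neither gene was called below both parents. The stress response element AGGGG occurred before 7 of the 11 members that fell, before 5 of the other 8 and before 22.1% of all tested genes. The list had 7 members called lower without parental replicate 1 and 8 without parental replicate 2. Heat-shock chaperones did not move together: 5 of 14 rose, led by the Hsp90 co-chaperone HCH1 (0.88 ± 0.11), and 2 fell. The fallers were the disaggregase HSP104 (-0.52 ± 0.11) and HSP42, a small heat-shock protein. HSP42 had 62.9 and 92.6 ppm in the hybrid and 148 and 158 ppm in the mid-parent. HSP104 had 749 and 759 ppm in the hybrid, against 1261 and 1556 ppm in S. cerevisiae and 736 and 783 ppm in S. paradoxus. The number of chaperones called higher was 2 per unmasked base, 1 without parental replicate 1 and 3 without parental replicate 2. Without parental replicate 2 HSP104 was not called (adjusted p = 0.125).

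Among the amino acid pathways, arginine synthesis had the lowest median of the lists tested. Of its 9 genes, 5 fell and 1 rose (median -0.87), against 13.6% lower and 9.81% higher over all genes. ARG3, ornithine carbamoyltransferase, had 17.7 and 8.10 ppm in the hybrid and 194 and 193 ppm in the mid-parent (-3.96 ± 0.29; adjusted p = 6.96e-06). ARG1, argininosuccinate synthetase, had 140 and 94.3 ppm in the hybrid and 536 and 540 ppm in the mid-parent (-2.22 ± 0.16). For both genes the mid-parent was set by S. paradoxus: ARG3 was at 3.54 and 6.52 ppm in S. cerevisiae and 384 and 379 ppm in S. paradoxus, and ARG1 at 61.0 and 70.0 ppm in S. cerevisiae and 1012 and 1010 ppm in S. paradoxus. The hybrid thus lay close to the S. cerevisiae parent. The S. paradoxus alleles of the hybrid gave 30.4 and 13.4 ppm for ARG3, and its S. cerevisiae alleles 4.97 and 2.79 ppm. The Gcn4 site TGACTCA lay before 3 of the 5 members that fell, before 1 of the other 4 and before 2.9% of all tested genes.

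The other amino acid and nucleotide lists held smaller shares of called genes. The share called over all genes was 23.4%, with 9.81% higher and 13.6% lower. In methionine and sulfur metabolism 2 of 25 rose and 3 fell, among them MET6, the methionine synthase, with 603 and 426 ppm in the hybrid and 985 and 949 ppm in the mid-parent (-0.93 ± 0.14). The sulfur list had 1 riser and 1 faller without either parental replicate, 8 fallers without hybrid replicate 1 and 5 risers without hybrid replicate 2. Lysine synthesis had 2 risers and 1 faller of 8, and all 3 calls were lost per unmasked base. Its median of 0.39 was 0.38 without parental replicate 1, 0.34 without parental replicate 2 and 0.49 without hybrid replicate 1. The lysine marker LYS2 was not analysed here. None of 8 branched-chain amino acid genes was called (median 0.16). Their median was 0.21 without hybrid replicate 1 and 0.09 without hybrid replicate 2. In purine synthesis 2 of 15 rose and 4 fell (0 and 1 without either parental replicate), and the glycine cleavage genes GCV2 and GCV1 in that list fell by 0.96 and 0.58 when the mean was taken on the ppm scale only. When the mean of log2 values was used instead, GCV1 was at 0.05 and GCV2 at 0.31 and neither was called. GCV2 stood at 98.1 and 121 ppm in the hybrid, against 415 and 401 ppm in S. cerevisiae and 19.1 and 18.3 ppm in S. paradoxus. Nitrogen catabolite genes had 5 of 15 lower and 1 higher, led by UGA1, the GABA transaminase (-1.44 ± 0.20), against 13.6% lower over all genes. Only 1 of them was called lower without parental replicate 1, and 1 without parental replicate 2.

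Phosphate genes fell in 6 of 9 cases and rose in 0 (median -0.60), against 13.6% lower and 9.81% higher over all genes. PHM8, a lysophosphatidic acid phosphatase induced by low phosphate, had 3.14 and 1.83 ppm in the hybrid and 19.2 and 23.7 ppm in the mid-parent (-2.91 ± 0.42). All 9 were higher in S. cerevisiae than in S. paradoxus, by a median of 2.17 on the log2 scale, and with the mean of log2 values 2 of the 9 were called. The Pho4 site CACGTG lay before 3 of the 6 members that fell, before 2 of the other 3 and before 3.7% of all tested genes. Iron uptake genes fell in 6 of 14 cases and rose in 2, with the siderophore transporter ARN2 at -1.49 ± 0.19 and the reductase FRE1 at 0.76 ± 0.11. Without parental replicate 1 or without parental replicate 2 there were 2 called-lower members. The Aft1 core CACCC lay before 4 of the 6 that fell, before 6 of the other 8 and before 19.1% of all tested genes, and the CCAAT box of the Hap complex before 7 of the 10 respiratory genes that rose, before 15 of the other 17 and before 41.8% of all tested genes.

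Cell wall genes were mostly lower, with 17 of 22 lower and 1 higher (median -0.48), against 13.6% lower and 9.81% higher over all genes. Some members are among the genes that the authors marked for ploidy or mating type. Without the marked genes, 14 members were tested, of which 10 were lower and 1 higher (median -0.46). TIP1, a cold-shock mannoprotein, had 117 and 119 ppm in the hybrid and 752 and 640 ppm in the mid-parent (-2.55 ± 0.12; adjusted p = 1.63e-07). Its S. cerevisiae level was 1339 and 1168 ppm and its S. paradoxus level 164 and 112 ppm, so the hybrid lay within the S. paradoxus values. TIR3, another mannoprotein, went the other way with 169 and 171 ppm in the hybrid and 62.0 and 62.6 ppm in the mid-parent (1.44 ± 0.13), but with the mean of log2 values the difference was 0.46 and not called (adjusted p = 0.132). PRY1, a secreted sterol-binding protein outside that list, had 24.6 and 43.5 ppm in the hybrid and 179 and 195 ppm in the mid-parent (-2.49 ± 0.23). Its level was 348 and 381 ppm in S. cerevisiae and 8.73 and 9.23 ppm in S. paradoxus. The cell wall list had 6 called-lower members without parental replicate 1 and 8 without parental replicate 2.

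Of the remaining lists, ergosterol synthesis had 6 of 21 lower and 1 higher, with NCP1, the cytochrome P450 reductase, at 346 and 360 ppm in the hybrid and 714 and 649 ppm in the mid-parent (-0.95 ± 0.10). The number lower in that list was 2 without parental replicate 1, 3 without parental replicate 2 and 10 without hybrid replicate 2. Proteasome genes had 5 of 31 lower and 0 higher, close to the 13.6% lower over all genes, with 0 called without parental replicate 1 and 0 without parental replicate 2. Calls were few in zinc homeostasis (1 of 10, lower), heme synthesis (1 of 12, lower), histones (1 of 3, higher) and glutathione and thioredoxin genes (1 of 20 higher and 2 lower, with the cytochrome c peroxidase CCP1 at -0.76 ± 0.12). The share called over all genes was 23.4%, with 9.81% higher and 13.6% lower.

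**Figure D3:**
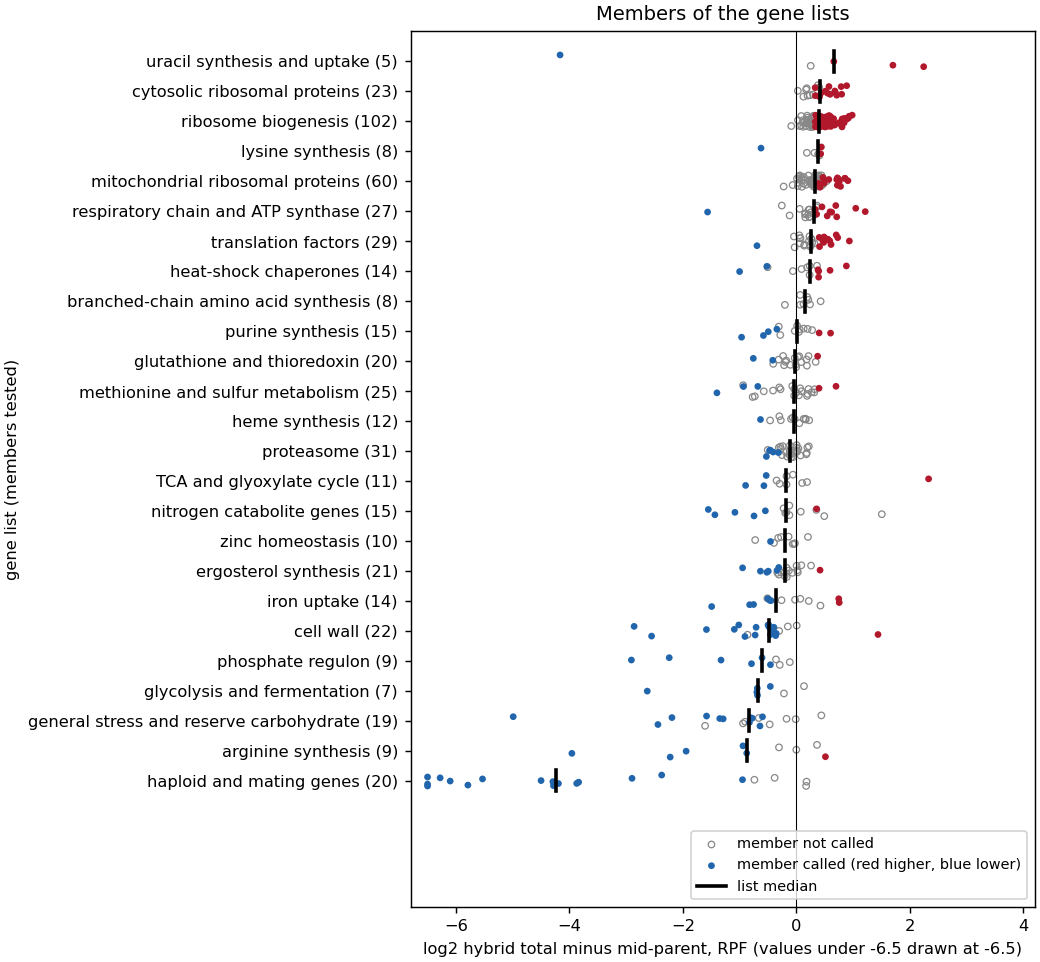
Log2 difference of the hybrid total from the mid-parent in RPF (horizontal axis) for every tested member of the 25 lists with at least 5 such members, 1 row per list ordered by its median (black bar); filled points were called, red higher and blue lower, and values under -6.5 are drawn at -6.5. Ribosomal lists lie to the right of 0 and the haploid, arginine, stress, glycolysis, phosphate and cell wall lists to its left.

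The hybrid was then placed against each parent by itself. Over 4438 genes its mean lay between the parents for 45.0%, above both for 29.3% and below both for 25.7%, but few genes lay outside by more than the replicate error. By the larger p of both contrasts, 38 genes (0.856%) were above both parents and 82 (1.85%) below both. Both contrasts share the hybrid libraries, and both parental values of a replicate come from the same mixed library. Where the parents differed by 2-fold or more (798 genes), the hybrid mean was between them for 80.5%, above both for 8.4% and below both for 11.2%. Without parental replicate 1 the number outside both parents was 25, without parental replicate 2 it was 61, without hybrid replicate 1 it was 63 and without hybrid replicate 2 it was 55.

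Among genes at or above the median coverage, NCE103, MDH2, URA1, URA4 and RIB4 were farthest above both parents, by 3.29, 2.01, 2.12, 1.36 and 1.12 on the log2 scale relative to the nearer parent. The MDH2 total of 217 and 308 ppm in the hybrid exceeded all 4 parental values, which were 55.4 and 73.4 ppm in S. cerevisiae and 46.0 and 29.1 ppm in S. paradoxus. At that coverage, farthest below both were URA3 (-4.04), PRM5 (-2.55), TEC1 (-2.37), SAG1 (-2.17) and APE1 (-1.76). That coverage averages hybrid and parental values, so genes that fell reached it largely through the parents. Hybrid means were 9.95 ppm for URA3, 26.2 for PRM5, 16.7 for TEC1 and 59.4 for APE1. SAG1 reached that coverage only through the S. cerevisiae parent, with 2570 and 2265 ppm. Its value compared 0.697 and 0.760 ppm in the hybrid with 6.22 and 4.03 ppm in S. paradoxus. The SAG1 value thus depends on the amount added before taking logs, and its rank beside the better covered genes is uncertain. The SAG1 call was lost without parental replicate 1 (adjusted p = 0.307).

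TEC1, a transcription factor of filamentous growth, had 13.6 and 19.8 ppm in the hybrid, against 152 and 141 ppm in S. cerevisiae and 84.7 and 88.6 ppm in S. paradoxus. PRM5, a membrane protein induced by pheromone and by cell wall stress, had 30.3 and 22.1 ppm in the hybrid, against 133 and 179 ppm in S. cerevisiae and 215 and 169 ppm in S. paradoxus. APE1, the vacuolar aminopeptidase, had 61.6 and 57.2 ppm in the hybrid, against 205 and 217 ppm in S. cerevisiae and 214 and 190 ppm in S. paradoxus. In these 3 genes both hybrid replicates lay below all 4 parental values.

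Where the parents were 2-fold or more apart, the hybrid lay slightly nearer to the S. paradoxus level more often. On a log scale with 0 at the S. paradoxus and 1 at the S. cerevisiae level, the median position over these 798 genes was 0.421, and 330 lay nearer S. cerevisiae and 468 nearer S. paradoxus. The median position was 0.449 for the genes higher in S. cerevisiae and 0.408 for the genes higher in S. paradoxus. A hybrid at the arithmetic mid-parent lies nearer the higher parent on this scale. The value of 0.408 by itself therefore shows no departure from additive levels, while 0.449 lay nearer the lower parent. Against the mid-parent, which as an arithmetic mean lies above the log midpoint, 65 of these genes were higher and 210 lower (34.7% called). Of 392 genes higher in S. cerevisiae, 17 were higher and 126 lower than the mid-parent, and of 406 genes higher in S. paradoxus, 48 were higher and 84 lower. With the mean of log2 values in place of the arithmetic mean, 444 of all tested genes were higher and 489 lower.

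**Figure D4:**
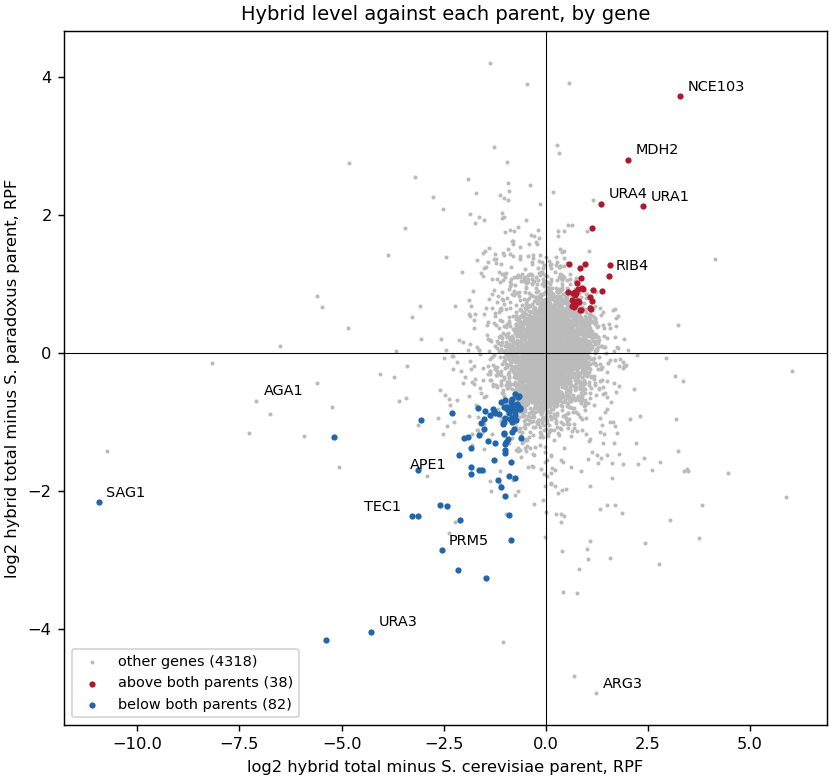
Log2 difference of the hybrid total from the S. paradoxus parent (vertical axis) against that from the S. cerevisiae parent (horizontal axis), 1 point per gene in RPF; red points are the 38 genes above both parents and blue points the 82 below both. URA1, URA4, NCE103 and MDH2 lie in the upper right and URA3, PRM5, TEC1 and SAG1 in the lower left, while ARG3 is far below S. paradoxus only. The place of SAG1 depends on the amount added before taking logs.

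In the genes outside the parents that are named here, picked after their values were seen, the alleles of both species contributed. MDH2 had 169 and 255 ppm from its S. cerevisiae allele and 265 and 361 ppm from its S. paradoxus allele in the hybrid, each above both values of its own parent. URA1 had 1484 and 1618 ppm from the S. cerevisiae allele and 1215 and 1135 ppm from the S. paradoxus allele in the hybrid, against 274 and 249 ppm in the S. cerevisiae parent and 291 and 335 ppm in the S. paradoxus parent. NCE103 had 394 and 183 ppm from the S. cerevisiae allele and 429 and 203 ppm from the S. paradoxus allele, so the gap between the hybrid replicates was present in both alleles. For APE1 the S. cerevisiae allele gave 54.3 and 68.7 ppm and the S. paradoxus allele 68.8 and 45.6 ppm, all under the parental values given above.

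Genes for which the parents were far apart showed other allele patterns. TIP1 in the hybrid had 167 and 174 ppm from the S. cerevisiae allele and 67.3 and 63.0 ppm from the S. paradoxus allele, and both alleles were below their own parent. CYC1 had 848 and 856 ppm from the S. cerevisiae allele and 1561 and 1111 ppm from the S. paradoxus allele, against 134 and 97.6 ppm in the S. cerevisiae parent and 826 and 817 ppm in the S. paradoxus parent. GCV2 had 94.5 and 117 ppm from the S. cerevisiae allele and 102 and 126 ppm from the S. paradoxus allele, so its alleles lay close together in the hybrid although the parents were far apart. TIR3 had 328 and 338 ppm from the S. cerevisiae allele and 9.69 and 4.86 ppm from the S. paradoxus allele, against 112 and 115 ppm in the S. cerevisiae parent and 11.5 and 10.2 ppm in the S. paradoxus parent. The genes in these allele comparisons were chosen after their values were seen, and allele differences were not tested.

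Gene classes deposited with the table also differed. Of 496 genes with a TATA box, 56 were higher and 135 lower in the hybrid (38.5% called), and of 2971 genes without one, 358 were higher and 300 lower (22.1%). Genes with a TATA box had a median coverage of 157 ppm, against 96.3 ppm for genes without one, and 34.0% of the genes at or above the median coverage were called, against 12.8% of those below it, so the part of coverage in the difference between classes was not tested. Genes with no TATA statement, with a median of 18.4 ppm, had 21 higher and 166 lower of 965 (19.4%). Of 48 tested genes that the authors marked for ploidy or mating type, 1 was higher and 25 lower (54.2%).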

How the data were processed

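Ribosome-protected fragments of the hybrid and of the mixed parents were measured by sequencing. The deposited values are a signal, namely the coverage summed over the unmasked bases of each gene and species, per the file's description, in which the authors scaled S. paradoxus to the S. cerevisiae total of each replicate. Any species difference in total output is lost through this step. The submitters' processing notes name CASAVA 1.8.2 and Bowtie 0.12. The genome build, the use of strand and the way the 2 lanes of parental replicate 2 were combined are not given in the sources used here. Coverage is no count of reads, so the number of reads behind a value is unknown.

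The 8 RPF coverage columns of the table of 4637 genes were expressed in ppm of their totals, and 32 other per-sample columns were left out. Lines emptied in the table (3) were dropped, and 235 genes had no systematic name. Coordinates and upstream sequence come from the R64 reference (RefSeq) for 4401 genes matched by systematic name. The 2 species columns of a replicate were averaged, 0.5 ppm was added and the log2 was taken, which understates differences of weakly covered genes. Genes with a mean of at least 3 ppm over the values fitted were tested with limma 3.58.1 (trend on mean coverage) in R 4.3.3, two-sided, with Benjamini-Hochberg adjustment over all genes tested and a threshold of 0.05. Errors are standard errors of that fit. The position fit used 6 values a gene (hybrid total and both parents) and the larger p of both contrasts. The planned test of RPF against mRNA was not run, because the parental mRNA columns could not each be assigned to a labelled sample. The scripts were tested on simulated data.

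Genes named are the 12 largest rises and 12 largest falls among called genes with separate groups and at least the median coverage of 80.0 ppm, up to 4 members per list (the 2 largest called in each direction), the 5 farthest above and the 5 farthest below both parents at or above the median coverage of that fit, and markers of mating type with URA3. Coverage here averages hybrid and parental values. A gene that fell could thus reach the cutoff through the parents alone, as did STE3 (1.38 ppm in the hybrid, 257 ppm in the mid-parent). Genes printed in the report beyond that rule (FUR1, URA5, STE12, STD1) complete a list, and those under the other observations were picked after their values were seen. The comparison, the 27 gene lists and the named rules were chosen with earlier results of these data known, so no count supports them independently. Alternatives covered the pseudocount, the filter, the scaling, each replicate, a replicate block, the prior spread, the marked genes, the mean of log2 values, a test against 1.5-fold and group weights. Gene classes (TATA box, ploidy or mating type) are the authors' deposited marks.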

Additional observations from a re-analysis of the deposited data

How the results depend on the processing

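The number of genes called against the mid-parent was 1036, and it was 407 without the coverage trend in the spread and 101 against a 1.5-fold threshold (9 higher, 92 lower). The split was 435 higher and 601 lower, and it was 121 and 286 without the trend, 274 and 547 per unmasked base and 444 and 489 with the mean of log2 values. The remaining settings that used all libraries gave 791 to 1313. Leaving out 1 library gave 268 to 1836. Outside both parents 120 genes were called, 56 with no filter and 17 without the trend, and 25 to 63 with 1 library left out. With 1 library left out, the spread came from the other group alone. Replicates differed by a median of 0.22 on the log2 scale in the hybrid and 0.11 in the parents. The cause of these moves was not tested.

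The deviations of same-numbered samples correlated at r = -0.108 across genes, and no label ties the numbers to a shared batch, so the samples share only a number. With the replicate number as a block the counts were 1113 against the mid-parent and 108 outside both parents, and DPP1 was the named gene that lost its call. With crossed numbers, chosen after seeing the data, 1313 genes were called against the mid-parent. The comparison of RPF with mRNA, its alternatives and the fit shared with mRNA were not run.

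Of the 92 named genes, GCV1 (0.048) and GCV2 (0.31) reversed with the mean of log2 values, and 50 lost their call against 1.5-fold, 30 without the trend, 10 with no filter, 10 per unmasked base, 27 without parental replicate 1 and 22 without parental replicate 2. Depth in reads is unknown, hybrid replicate 2 had the lowest coverage, and genes under 3 ppm were not tested.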

Other observations

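Genes below both parents that were picked for this paragraph after their values were seen included G1 cyclins and vacuolar proteases. CLN2, a G1 cyclin, had 96.0 and 97.4 ppm of RPF in the hybrid, against 248 and 250 ppm in S. cerevisiae and 164 and 199 ppm in S. paradoxus. Both hybrid replicates lay under all 4 parental values. The related cyclin CLN1 stood at -0.73 relative to the nearer parent on the log2 scale (adjusted p = 0.045) and PCL1, a cyclin of the Pho85 kinase, at -0.68 (adjusted p = 0.0385). PEP4, vacuolar proteinase A, had 294 and 247 ppm in the hybrid, against 711 and 586 ppm in S. cerevisiae and 473 and 497 ppm in S. paradoxus, and PRB1, vacuolar proteinase B, stood at -0.86 relative to the nearer parent. MSB2, a sensor at the head of the filamentous growth pathway in which TEC1 acts, had 331 and 348 ppm in the hybrid, against 612 and 688 ppm in S. cerevisiae and 905 and 715 ppm in S. paradoxus. The yapsin protease of the cell surface YPS3 (-1.57) was below both parents as well.

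Above both parents, besides the genes already described, were NOP1, the rRNA methyltransferase fibrillarin, with 1661 and 1788 ppm in the hybrid, against 820 and 815 ppm in S. cerevisiae and 1127 and 1075 ppm in S. paradoxus, and the RNA polymerase III subunits RPC31 (0.63) and RPC40 (0.63). CAF20, a repressor of cap-dependent translation that binds eIF4E, had 785 and 771 ppm in the hybrid, against 414 and 486 ppm in S. cerevisiae and 451 and 472 ppm in S. paradoxus. These genes were likewise chosen after their values were seen.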
